A study of Mus musculus with 18 samples.

Results

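The genes described here encode the CatSper calcium channel of the sperm tail and the ion transporters that act with it. They are the pore subunit genes Catsper1, Catsper2, Catsper3 and Catsper4, the auxiliary subunit genes Catsperb and Catsperd, the sperm potassium channel gene Kcnu1 with its partner Lrrc52, the sperm sodium/proton exchanger gene Slc9c1 and Atp1a4, the sodium pump gene of sperm. The 10 genes were picked by symbol, out of 22657 genes in the table, and all 10 were measured. RNA-seq was done on testes of ICR mice that had been cultured whole for 48 h with alginate oligosaccharides (AOS), which are short sugar chains cut from the alginate of brown algae. There were 18 samples in 6 groups of 3. A0, A10 and A50 came from mice that had no busulfan, at 0, 10 and 50 µg/mL AOS in DMEM/F12 medium with serum. B0, BA10 and BA50 had the same AOS concentrations and came from mice injected once with busulfan, an alkylating anticancer drug toxic to germ cells that divide, at 40 µg per g of body weight. Mice were injected at 3 weeks of age and their testes were taken 2 weeks later, and the A groups were of the same age. The design text of the series gives AOS in mg per kg of body weight, whereas the labels and the methods give µg/mL, which is used here. The methods state 6 testes per treatment and that the cultures were repeated 3 times, but not how many testes made up a sample. The p-values therefore measure only the spread between these samples.

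Sperm must swim with a strong, whip-like beat (hyperactivation) to reach and enter the egg, and this beat needs calcium entering the tail through CatSper. Its pore is built of the CATSPER1, CATSPER2, CATSPER3 and CATSPER4 proteins, and auxiliary proteins such as CATSPERB and CATSPERD hold the complex together on the cell surface. CatSper opens when the inside of the sperm becomes alkaline, and SLC9C1 has been linked to that pH. KCNU1 (SLO3) carries the potassium current that sets the membrane voltage, and ATP1A4 keeps the sodium gradient. Transcripts of such genes are made in germ cells at and after meiosis, long before the protein is used in sperm.

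Values are FPKM (fragments scaled by transcript length and by the mapped fragments of the sample), so levels can be compared between genes. Comparisons between samples depend on the scaling as well, and results under other scalings are given below. FPKM summed to between 463970 and 511274 per sample, with 14291 to 15040 genes at 1 FPKM or more, and read depth is unknown. Markers of germ, Sertoli and Leydig cells were detected in every group, but not each marker reached a mean of 1 FPKM. Below that were 1 Sertoli and 1 Leydig marker in each group, 1 to 3 spermatogonium markers, and 2 to 3 spermatocyte markers after busulfan. Late spermatid markers (10 genes such as Prm1 and Tnp1) summed to at least 3132 FPKM in every sample. A10 replicate 3 stood apart. Its correlation with the other A10 samples was 0.929 and 0.941, and its Sertoli cell markers summed to 1046 FPKM against 2443 and 2774. The changes and counts of the 10 genes, the gene lists, the ratios and the levels set against markers were also computed without it.

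Promoter sequence of 8 of the 10 genes was at hand from RefSeq (GRCm38.p6); Catsper1 and Kcnu1 had no entry. The 250 bases before each start were searched on both strands for 5 promoter motifs: the cAMP response element TGACGTCA, its shorter form TGACG (which lies within the longer), the RFX motif letters GTTNCC, the MYB core AACNG, which can share bases with GTTNCC, and the TATA box TATAAA. Stretches of 3 promoters that touch no annotated exon, and short stretches of 2 others, are shown because these genes differ in how they behaved below: Catsperb, Slc9c1, Catsperd and Catsper2 were lower after busulfan and Catsper4 did not pass the test. Capitals mark matches to a motif.
Catsperb (chr12:101404423-101404644, plus strand): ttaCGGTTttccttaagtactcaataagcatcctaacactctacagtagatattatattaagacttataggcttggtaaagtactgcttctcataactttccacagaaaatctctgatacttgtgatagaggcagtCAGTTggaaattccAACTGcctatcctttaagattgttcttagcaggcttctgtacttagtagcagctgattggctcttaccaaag
Slc9c1 (chr16:45535016-45535265, plus strand): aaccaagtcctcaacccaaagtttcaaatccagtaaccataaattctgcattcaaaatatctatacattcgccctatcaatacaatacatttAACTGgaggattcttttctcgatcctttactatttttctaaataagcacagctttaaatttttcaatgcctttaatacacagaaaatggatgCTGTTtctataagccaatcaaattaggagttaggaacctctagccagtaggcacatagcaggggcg
Catsper4 (chr4:134227432-134227633, minus strand): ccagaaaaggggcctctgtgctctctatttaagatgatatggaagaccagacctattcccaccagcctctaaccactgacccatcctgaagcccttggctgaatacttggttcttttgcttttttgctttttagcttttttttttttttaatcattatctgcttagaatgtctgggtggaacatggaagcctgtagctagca
Catsperd (chr17:56626887-56626910, plus strand): TGACGgcgcaccgcacttaCGTCA
Catsper2 (chr2:121413855-121413879, minus strand): cgattggctgCGTCAcgcagcgtcg
The capitals in Catsperb and Slc9c1 are all AACNG, read on either strand, and the Catsper4 stretch has none. The stretches of Lrrc52 and Atp1a4, which touch no annotated exon either, hold AACNG too and are not shown. Neither gene passed the test. AACNG was thus present both in genes that were lower and in genes that were not, and its part in the changes was not tested. The capitals in Catsperd and Catsper2 are TGACG or its reverse complement. The Catsper2 stretch lies before the GENCODE start of the gene but inside its RefSeq span (chr2:121391633-121414598). The Catsperd stretch lies just before the RefSeq start (56626911) and farther before the GENCODE start (56628143). The part of its window before the RefSeq start overlaps 2 annotated exons.

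The full element TGACGTCA was in no window of these genes and in 1.55% of 32851 windows genome-wide. TGACG was in the windows of Catsper2 and Catsperd and in 17.8% of all windows, and GTTNCC was in the same 2 genes and in 39.4%. Catsperd has 2 windows, of which TGACG was in the first and GTTNCC in the second. AACNG was in 6 of the 8 genes, all but Catsper3 and Catsper4, and in 74.2% of all windows. TATAAA was in none of the 8 and in 12.4% of all. The window of Catsper2 was rich in GC (74.8%, 35 CG pairs), that of Catsperb poor (38% GC), and that of Slc9c1 poor as well (35.6%), against a median of 52.4% GC and 6 CG pairs over all windows. Matches are letters only, and binding was not measured.

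All 10 genes reached 1 FPKM in all 18 samples. In A0 the highest mean was that of Atp1a4, 45.9 ± 18.6 FPKM (SD, n = 3), and the next that of Catsper2, 39.0 ± 7.43, and these overlapped. Catsper2 lay above the third gene, Catsper1 (18.5 ± 6.08), in every A0 sample. From Catsper1 down to Lrrc52 (6.55 ± 3.45) each gene overlapped the next in that order. After busulfan alone (B0) Atp1a4 and Catsper2 still had the highest means, 39.6 ± 1.62 and 28.4 ± 9.73 FPKM, and overlapped. The lowest gene in B0 was Catsperb at 3.56 ± 1.25 FPKM, with Slc9c1 next at 6.47 ± 2.25, and these ranges overlapped too. In BA10 and BA50 Catsperb was below the next gene in every sample.

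**Figure D1:**
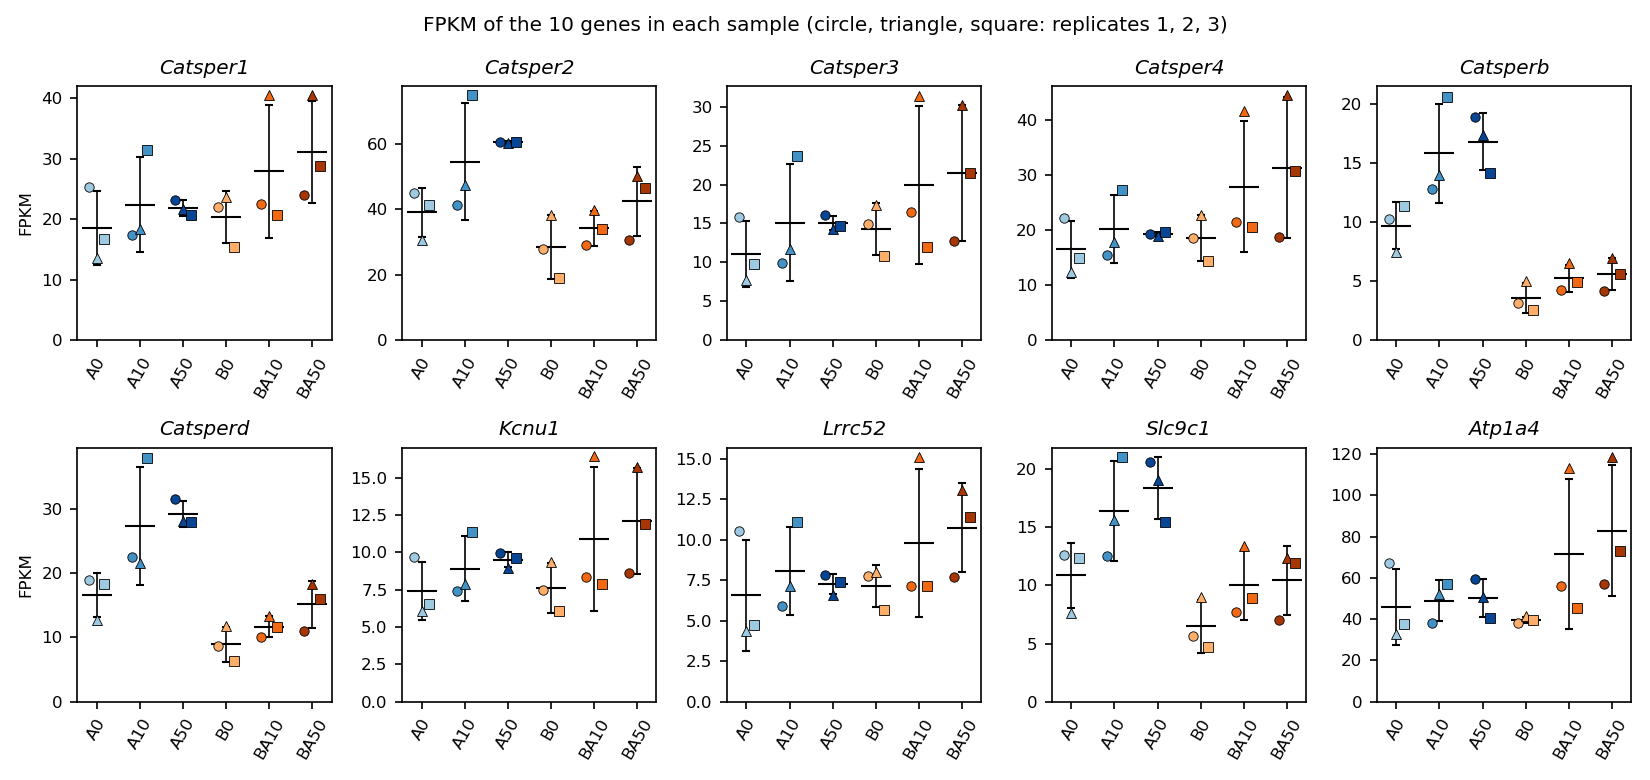
FPKM (y axis, from 0, a scale for each gene) of the 10 genes in the 6 groups (x axis). Points are single samples, horizontal bars are means and vertical bars SD (n = 3). Catsperb shows no overlap between the 9 busulfan samples (at most 6.93 FPKM) and the 9 others (at least 7.45) as measured; after quantile normalization they overlap.

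Busulfan was examined at each AOS concentration (B0 against A0, BA10 against A10, BA50 against A50) and over all 3 together, 9 samples against 9. Over all 3, the auxiliary subunit genes Catsperb and Catsperd, the exchanger gene Slc9c1 and 1 pore subunit gene, Catsper2, were lower after busulfan. The other 3 pore genes, the potassium channel genes and Atp1a4 did not pass the test. By limma on log2(FPKM + 1), with Benjamini-Hochberg adjustment over 15790 genes, 4 of the 10 genes were lower at adjusted p under 0.05 and none was higher. Among all genes tested 24.8% were lower and 13.3% higher, so that 34.8% of the calls were higher; after quantile normalization 50.3% of the calls were. In bulk tissue, fewer cells of a type and less RNA per cell cannot be told apart. The median change of the 10 genes was 0.24 on the log2 scale, against 0.01 over all genes.

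Catsperb, on chr12:101404653-101626009, encodes a large extracellular auxiliary subunit. It had 10.3, 7.45 and 11.4 FPKM in A0, 12.8, 14.02 and 20.6 in A10, and 18.9, 17.4 and 14.2 in A50. After busulfan it had 3.16, 4.97 and 2.56 FPKM in B0, 4.27, 6.52 and 4.95 in BA10, and 4.18, 6.93 and 5.62 in BA50. Every busulfan sample was below every sample without busulfan. No other of the 10 genes was separated in this way, and 9.66% of all genes tested were, in that direction. After quantile normalization, which gives every sample the same set of values, Catsperb overlapped too, and 0 of the 10 genes were separated. The mean fell from 14.1 to 4.80 FPKM, a log2 change of -1.37 ± 0.13 (SE, limma adjusted p = 1e-06). An exact permutation within AOS concentrations gave p = 0.00025, the smallest it can give. Catsperb passed adjusted p under 0.05 at each AOS concentration, with log2 changes of -1.24 (limma adjusted p = 0.0018), -1.42 (0.00048) and -1.45 (0.00033) at 0, 10 and 50 µg/mL.

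Catsperd, on chr17:56628143-56664456, encodes another auxiliary subunit. It had 18.9, 12.7 and 18.3 FPKM in A0, 22.5, 21.6 and 38.0 in A10, and 31.5, 28.1 and 28.0 in A50. The values after busulfan were 8.59, 11.8 and 6.34 FPKM in B0, 10.1, 13.3 and 11.6 in BA10, and 11.1, 18.3 and 16.0 in BA50. The groups did not overlap at any AOS concentration, but A0 replicate 2 lay within the range of the 9 busulfan samples and A0 replicate 3 equalled BA50 replicate 2. The mean fell from 24.4 to 11.9 FPKM, a log2 change of -0.97 ± 0.14 (SE, limma adjusted p = 5.7e-05; exact permutation p = 0.00025). At 0, 10 and 50 µg/mL the log2 changes were -0.85, -1.13 and -0.93 (limma adjusted p = 0.029, 0.0040 and 0.013).

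At each AOS concentration, then, 2 of the 10 genes, Catsperb and Catsperd, were lower at adjusted p under 0.05 and none was higher. Of all genes 12.3% were lower and 1.47% higher in B0 against A0, 15.2% and 3.74% in BA10 against A10, and 16.2% and 3.7% in BA50 against A50. The samples of 2, 3 and 4 of the 10 genes were wholly below their controls at 0, 10 and 50 µg/mL, where 22.7%, 20.2% and 25.7% of all genes were. Catsperb and Catsperd were among them at each concentration, Catsper2 joined at 10 and 50 µg/mL and Slc9c1 at 50 µg/mL. Without A0 replicate 2 or B0 replicate 2 the count at 0 µg/mL was 4, where 28.2% and 27.3% of all genes were separated. The Catsperd result in B0 depends on single samples: its limma adjusted p was 0.12 without A0 replicate 1, 0.11 without A0 replicate 3, 0.077 without B0 replicate 1 and 0.15 without B0 replicate 3. In BA50 against A50 it was 0.051 without A50 replicate 1 and 0.065 without BA50 replicate 1. Without A10 replicate 3, the sample that stood apart, Catsperb and Catsperd still passed in BA10 against A10, with log2 changes of -1.22 and -0.87, and 4 genes still passed over all concentrations.

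Slc9c1, on chr16:45535309-45607001, encodes the sperm sodium/proton exchanger. In A0 it had 12.6, 7.64 and 12.4 FPKM, in A10 12.6, 15.7 and 21.02, and in A50 20.6, 19.1 and 15.5. In B0 it had 5.66, 9.01 and 4.73 FPKM, in BA10 7.73, 13.4 and 8.88, and in BA50 7.01, 12.4 and 11.9. Replicate 2 was the highest of each busulfan group. The mean fell from 15.2 to 8.97 FPKM over all concentrations, a log2 change of -0.71 ± 0.16 (SE, limma adjusted p = 0.0024; exact permutation p = 0.00125). At single concentrations it did not pass, with log2 changes of -0.68, -0.67 and -0.79 (limma adjusted p = 0.13, 0.11 and 0.057). After TPM scaling it passed at 50 µg/mL, with a log2 change of -0.90.

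Catsper2, on chr2:121392631-121413792, is the pore gene that was lower at adjusted p under 0.05 over all concentrations. It had 45.1, 30.7 and 41.2 FPKM in A0, 41.3, 47.5 and 74.9 in A10, and 60.6, 60.1 and 60.7 in A50. After busulfan it had 27.8, 38.4 and 18.9 FPKM in B0, 29.0, 39.7 and 33.9 in BA10, and 30.5, 50.1 and 46.6 in BA50. BA10 and BA50 were each wholly below their controls, whereas B0 replicate 2 lay within the range of A0. The mean fell from 51.3 to 35.0 FPKM, a log2 change of -0.55 ± 0.15 (SE, limma adjusted p = 0.010; exact permutation p = 0.002). At single concentrations the log2 changes were -0.48, -0.62 and -0.53 and did not pass (limma adjusted p = 0.28, 0.11 and 0.17). Exons of Catsper2 overlap those of Pdia3 on the other strand. Whether counting used strand is not given in the sources used here, so reads of the 2 genes cannot be told apart there.

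**Figure D2:**
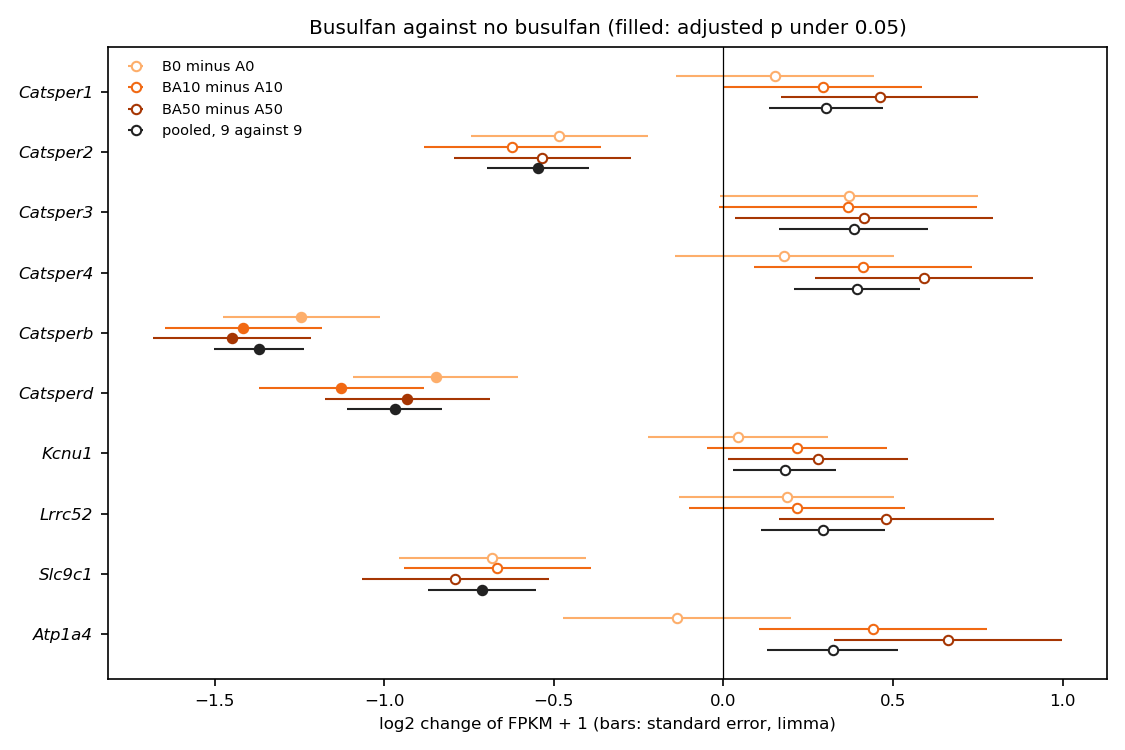
The log2 change of FPKM + 1 after busulfan (x axis; points with standard error bars, limma) for each of the 10 genes (y axis) at 0, 10 and 50 µg/mL AOS and over all 3. Filled points passed adjusted p under 0.05; Catsperb and Catsperd are filled in all 4 comparisons, and Catsper2 and Slc9c1 in the pooled one.

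The other pore genes had higher means after busulfan, within the spread between samples. Catsper1, on chr19:5335741-5344280, ranged from 13.6 to 31.4 FPKM (median 20.7) without busulfan and from 15.5 to 40.6 (median 23.6) with it. Catsper3, on chr13:55784568-55808998, ranged from 7.72 to 23.7 FPKM (median 14.3) and from 10.8 to 31.4 (median 16.5). Catsper4, on chr4:134211970-134227383, ranged from 12.3 to 27.2 FPKM (median 18.9) and from 14.4 to 44.4 (median 21.4). The ranges overlapped broadly, although Catsper1 was higher in all 3 BA50 samples than in A50, as were 16% of all genes. That count rose to 6 of the 10 genes without BA50 replicate 1 (22.3% of all genes) and to 3 without A50 replicate 1 (18.9%). The 2 highest values of all 3 genes were BA10 replicate 2 and BA50 replicate 2. Their log2 changes over all concentrations were 0.30 ± 0.17, 0.38 ± 0.22 and 0.39 ± 0.19 (SE; limma adjusted p = 0.17, 0.18 and 0.11). Without BA50 replicate 1, Catsper4 passed at a log2 change of 0.50 (limma adjusted p = 0.037), so that 1 of the 10 genes was then higher.

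Kcnu1 (chr8:25849623-25937939) and Lrrc52 (chr1:167445669-167466780), which encode the potassium channel and the leucine-rich repeat protein that shifts its gating, also overlapped. Kcnu1 ranged from 6.05 to 11.4 FPKM without busulfan and from 6.04 to 16.5 with it, a log2 change of 0.18 ± 0.15 (SE, limma adjusted p = 0.37). Lrrc52 ranged from 4.38 to 11.1 FPKM and from 5.65 to 15.1, a log2 change of 0.29 ± 0.18 (SE, limma adjusted p = 0.22). Atp1a4 (chr1:172223513-172258414) had 67.2, 32.7 and 37.8 FPKM in A0 and 38.1, 41.3 and 39.6 in B0, so that B0 lay inside the range of A0. Its log2 change was -0.14 at 0 µg/mL, 0.44 at 10 and 0.66 at 50, and 0.32 ± 0.19 over all (SE, limma adjusted p = 0.20).

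The study set stricter limits, an adjusted p of at most 0.001 and a log2 change of at least 1. Under these Catsperb alone was called, in BA10 against A10, BA50 against A50 and over all concentrations, where 3%, 3.36% and 3.52% of all genes were called lower. None of the 10 genes was called in B0 against A0, where 2.49% of all genes were called lower. In BA10 against A10 the count was 0 without A10 replicate 2 or 3 or BA10 replicate 1 or 3, and in BA50 against A50 it was 0 without A50 replicate 1 or 2 or BA50 replicate 1 or 3. Catsperd was called as well over all concentrations, for a count of 2, without A0 replicate 2, A10 replicate 1, A10 replicate 2, B0 replicate 2 or BA50 replicate 2.

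Dividing each gene by Catsper1 in the same sample takes out the shifts shared by a whole library. It also brings in the change of Catsper1 itself, a log2 change of 0.30 that did not pass, which pushes the ratios down after busulfan. The log2 change of Catsperb was -1.87 as a ratio and -1.37 in the fit. The ratio of Catsperb to Catsper1 was 0.404 to 0.811 in the 9 samples without busulfan (median 0.685) and 0.143 to 0.239 in the 9 with it (median 0.174). For Catsperd the ratio was 0.746 to 1.36 without busulfan and 0.327 to 0.560 with it. These ratios did not overlap, nor did those of Catsper2 (1.78 to 2.94 against 0.978 to 1.63) and Slc9c1 (0.497 to 0.888 against 0.256 to 0.429). As FPKM, Catsperd, Catsper2 and Slc9c1 overlapped over all concentrations, so their separation here depends on the division by Catsper1. A ratio to Catsper1 that was lower in every busulfan sample was found for 9.85% of all genes tested. A ratio that was higher in every busulfan sample was found for 0.00633%. Without A10 replicate 3 the same 4 ratios were still apart.

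The remaining genes kept overlapping ratios to Catsper1. Catsper4 was at 0.830 to 0.971 of Catsper1 without busulfan and at 0.779 to 1.10 with it, and Catsper3 at 0.566 to 0.753 and 0.530 to 0.774. Kcnu1 was at 0.362 to 0.467 and 0.340 to 0.413, and Lrrc52 at 0.285 to 0.415 and 0.318 to 0.396. Atp1a4 was 1.82 to 2.83 times Catsper1 without busulfan and 1.72 to 2.93 times with it. Within the lower genes, the ratio of Catsperb to Catsperd did not overlap either, at 0.506 to 0.648 without busulfan and 0.351 to 0.491 with it. The ratios describe the same values as the fit above, carry no test, and were looked at after the changes were known.

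**Figure D3:**
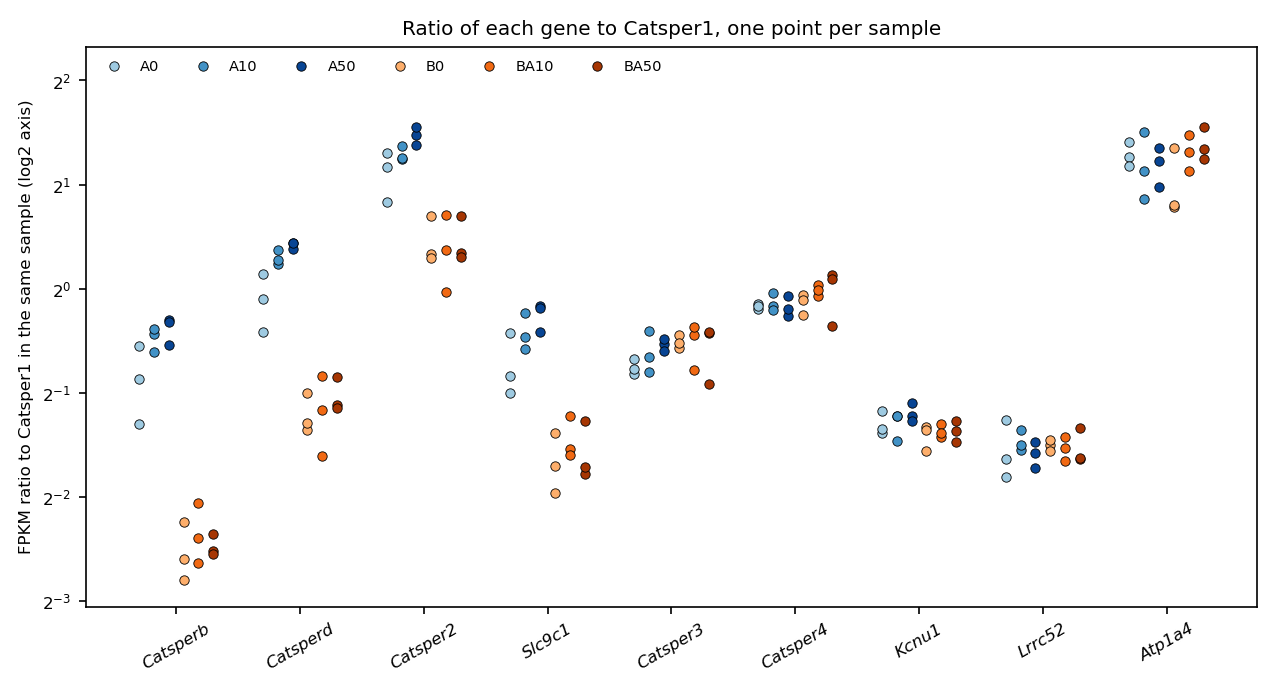
FPKM ratio to Catsper1 in the same sample (y axis, log2 scale) for the other 9 genes (x axis); each point is 1 sample, blue without and orange with busulfan. The blue and orange points of Catsperb, Catsperd, Catsper2 and Slc9c1 do not overlap, and those of the other 5 genes do.

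The list of 12 further genes of the CatSper complex and its regulators was chosen with earlier results of these data known, and all 12 were tested. Over all concentrations 8 of 12 were lower and 1 was higher at limma adjusted p under 0.05, where 24.8% and 13.3% of all genes were, with a median log2 change of -0.55 (all genes 0.01). Without A10 replicate 3 the counts were 8 lower and 4 higher. The largest falls were those of Catspere1 and Catspere2, near-identical genes of the CATSPERE subunit whose reads may be shared between them, with log2 changes of -2.49 ± 0.20 and -2.11 ± 0.15 (SE). Catspere1 was at 7.27 to 14.6 FPKM in 8 of the samples without busulfan and at 39.5 in A10 replicate 3, and at 0.66 to 2.21 in all 9 with it. Catsperg2 and Catsperg1, another such pair, had log2 changes of -1.30 and -0.90.

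Slco6c1, which encodes a transporter-like protein of the complex, had a log2 change of -0.68, and Trim69 one of -0.61. C2cd6, whose protein takes part in moving CatSper into the tail, had -0.50, and Catsperz, a small cytoplasmic subunit gene, -0.48. The gene that was higher was Abhd2, whose enzyme is a progesterone target upstream of CatSper, at 0.52 ± 0.07 (SE). Efcab9, Tmem249 and Tmem262 had log2 changes of 0.49, 0.37 and 0.49 and did not pass (limma adjusted p = 0.074, 0.21 and 0.070). At single concentrations 4, 4 and 5 of the 12 were lower at 0, 10 and 50 µg/mL, against 12.3%, 15.2% and 16.2% of all genes. Abhd2 was also higher at 10 and 50 µg/mL, with log2 changes of 0.75 and 0.67.

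**Figure D4:**
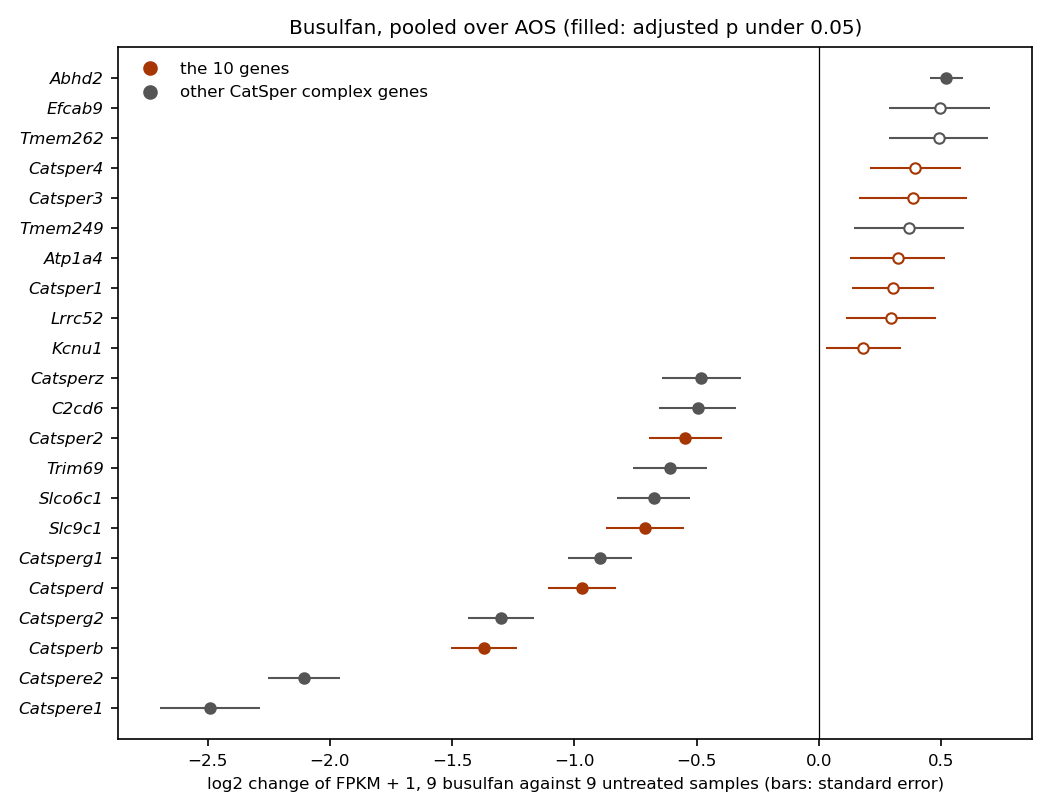
The log2 change of FPKM + 1 after busulfan over all AOS concentrations (x axis; 9 samples against 9, bars are standard errors from limma) for the 10 genes and 12 others of the CatSper complex (y axis, ordered by change). Filled points passed adjusted p under 0.05: 4 of the 10 and 8 of the 12 were lower, and Abhd2 was higher.

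Of 10 other genes of sperm ion transport, 9 were tested (Slc9b2 was too low), of which 5 were lower and 2 higher over all concentrations, against 24.8% and 13.3% of all genes. Pkd2l1, a polycystin channel gene, had a log2 change of -1.41, at 1.29 to 3.41 FPKM without busulfan and 0.17 to 0.46 with it. The sodium/proton exchanger gene Slc9b1 and the anion transporter gene Slc26a8 each had -0.71, the calcium pump gene Atp2b4 -0.40 and the exchanger gene Slc9a8 -0.19. The carbonic anhydrase gene Car4 (0.44) and the proton channel gene Hvcn1 (0.36) were higher. The rise of Car4 came from B0, with a mean of 2.79 FPKM against 0.52 in A0. Its means were 0.65 in BA10 against 0.50 in A10, and 0.43 in BA50 against 0.51 in A50.

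Germ cell markers moved with busulfan too. Of 11 spermatocyte markers 10 were lower over all concentrations, with a median log2 change of -1.99. Their sum was 981 to 2365 FPKM without busulfan and 556 to 1501 with it, and none was at 0 throughout a group. Most of that sum was Ldhc, with means of 856 FPKM in A0 and 591 in B0, so it understates the falls of other markers. Sycp3 went from a mean of 113 FPKM in A0 to 10.8 in B0, and Hormad1 from 50.6 to 2.97. Of 10 round spermatid markers 1 was lower and 1 was higher, and of 10 late spermatid markers none passed (3 at an unadjusted p under 0.05; median log2 change 0.42). Without A10 replicate 3, 7 round and 4 late spermatid markers were higher. Of 7 spermatogonium markers tested 4 were lower, with sums over all 8 listed of 93.9 to 177 FPKM without busulfan and 56.6 to 111 with it. Uchl1 was the largest part of that sum, and Stra8 went from a mean of 25.3 FPKM in A0 to 0.0067 in B0. Fat markers also rose, 6 of 6, with sums of 42.4 to 84.6 FPKM without busulfan, 196 to 804 in B0 and 67.8 to 138 in BA10 and BA50. Of 4 epithelium markers 3 were higher and 1 was lower; their sums were 24.8 to 43.9 FPKM without busulfan, 69.2 to 179 in B0 and 16.4 to 28.6 in BA10 and BA50, and in B0 against A0 alone 3 passed the limits of the study, with a median log2 change of 2.65. Of 3 endothelium markers 2 were higher, with sums of 29.1 to 53.3 FPKM without busulfan and 25.6 to 72.5 with it. No fat, epithelium, endothelium or spermatogonium marker was at 0 throughout a group. The part of these cells in the changes of the 10 genes was not tested.

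Set against the mean of the 20 spermatid markers in the same sample, the mean log2 level of Catsperb and Catsperd was lower by 1.49 after busulfan, without overlap (-3.33 to -2.37 without busulfan, -4.57 to -3.81 with it). Set against the spermatocyte markers, their level was higher by 0.71 (-1.08 to -0.13 and -0.36 to 0.26, overlapping, though not without A10 replicate 3). The 4 pore genes together were lower by 0.19 against spermatid markers (-2.59 to -2.22 and -2.89 to -2.31) and higher by 2.02 against spermatocyte markers (-0.78 to 0.19 and 1.25 to 2.02). Catsper1 by itself differed by -0.02 against spermatid markers, Catsper3 by 0.06, Catsper4 by 0.07, Kcnu1 by -0.14, Lrrc52 by -0.03 and Atp1a4 by 0.00. Slc9c1 differed by -1.04 and Catsper2 by -0.87.

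AOS was examined at 10 and 50 µg/mL without busulfan (A10 and A50, both against A0) and after busulfan (BA10 and BA50, both against B0). None of the 10 genes passed adjusted p under 0.05 by limma in any of the 4 comparisons. Among all genes tested, 0% were higher in A10, A50 and BA10 and 0.00633% in BA50, and 0% were lower in A10 and A50, 0.0253% in BA10 and 0.0887% in BA50. All estimates for these genes were above 0, and the spread between samples was wide. The 10 late spermatid markers were also all above 0 in each comparison. Of the 10 round spermatid markers, 9, 9, 10 and 10 were above 0 in A10, A50, BA10 and BA50. The 10 genes varied together from sample to sample, with a median Pearson's r of 0.85 after group means were taken away. Their shared direction is therefore not 10 separate results. The pairs of comparisons share their control samples, so they are not separate evidence.

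In A10 against A0 the median log2 change of the 10 genes was 0.34 (all genes -0.06), with 10 of 10 above 0, as were 42.1% of all genes. At an unadjusted p under 0.05 there were 2, Catsperb and Catsperd (background 4.51% higher), and these were also the 2 whose samples did not overlap (background 7.81%). Their log2 changes were 0.64 ± 0.23 and 0.66 ± 0.24 (SE, limma adjusted p = 0.32 for both). Without A10 replicate 3 the median fell to 0.07, Catsper1 was at -0.01, and Catsperb and Catsperd were at 0.45 and 0.41. Without A0 replicate 1 the median was 0.60. The samples of 4 genes did not overlap without A10 replicate 1 (13.8% of all genes), and those of all 10 without A0 replicate 1 (16.9%).

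In A50 against A0 the median was 0.40 (all genes -0.06), with 10 of 10 above 0 (background 41.6%). Catsper2, Catsperb, Catsperd and Slc9c1 had an unadjusted p under 0.05 (background 9.85% higher), and the samples of these 4 did not overlap (background 17.6%). Catsperd had the largest log2 change, 0.79 ± 0.24 (SE, limma adjusted p = 0.21), with 16.6 ± 3.42 FPKM in A0 and 29.2 ± 2.01 in A50 (SD, n = 3). Without A0 replicate 1, the highest A0 sample for 9 of the 10 genes, all 10 were separated, as were 27% of all genes, and the median was 0.65. Without A0 replicate 2 the median was 0.24.

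In BA10 against B0 the median was 0.40 (all genes -0.03), with 10 of 10 above 0 (background 44.4%). Atp1a4 alone had an unadjusted p under 0.05 and samples that did not overlap (background 1.89% and 3.64%), with 38.1, 41.3 and 39.6 FPKM in B0 and 55.8, 113 and 45.4 in BA10. Its log2 change was 0.72 ± 0.34 (SE, limma adjusted p = 0.75). BA10 replicate 2 was the highest BA10 sample for all 10 genes, and without it the median was 0.19 and the log2 change of Atp1a4 was 0.34. Without B0 replicate 2 the samples of 7 genes did not overlap (12.9% of all genes).

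In BA50 against B0 the median was 0.58 (all genes -0.04), with 10 of 10 above 0 (background 44.7%), and 6 had an unadjusted p under 0.05 (background 12.7% higher). Atp1a4 changed most, with 57.1, 119 and 73.0 FPKM in BA50, a log2 change of 0.98 ± 0.34 (SE, limma adjusted p = 0.13). Its group mean was 2.09 times that of B0. Atp1a4 and Catsper1 were the 2 genes whose samples did not overlap (background 11.2%); exact permutation cannot go below p = 0.1 with 3 against 3, and gave 0.1 for both. Catsperd had a log2 change of 0.71 ± 0.24 (SE, limma adjusted p = 0.12), which became 0.91 with limma adjusted p = 0.049 without BA50 replicate 1. All 10 genes were separated without BA50 replicate 1 (24.4% of all genes), and 8 without B0 replicate 2 (20% of all genes). Without BA50 replicate 2, the highest BA50 sample for all 10 genes, the median was 0.39.

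Markers of spermatids and of cells outside the germ line moved in the same comparison. The late spermatid markers had a median log2 change of 1.10 in BA50 against B0, and 10 of 10 had an unadjusted p under 0.05, although none passed adjusted p under 0.05. Their sum was 3237 to 4492 FPKM in B0 and 6742 to 13876 in BA50, without overlap. The round spermatid markers had a median of 0.77, and 5 of 10 had an unadjusted p under 0.05. Fat and epithelium markers fell, 3 of 6 and 3 of 4 at limma adjusted p under 0.05, with medians of -2.03 and -2.91. Set against the 20 spermatid markers, the mean log2 level of the 10 genes was -3.06 ± 0.13 in B0 and -3.37 ± 0.13 in BA50 (SD, n = 3). The medians of the late spermatid markers were 0.25, 0.16 and 0.66 in A10 and A50 against A0 and in BA10 against B0, and 3 epithelium markers also fell in BA10 against B0. The part of these cells in the changes of the 10 genes was not tested.

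**Figure D5:**
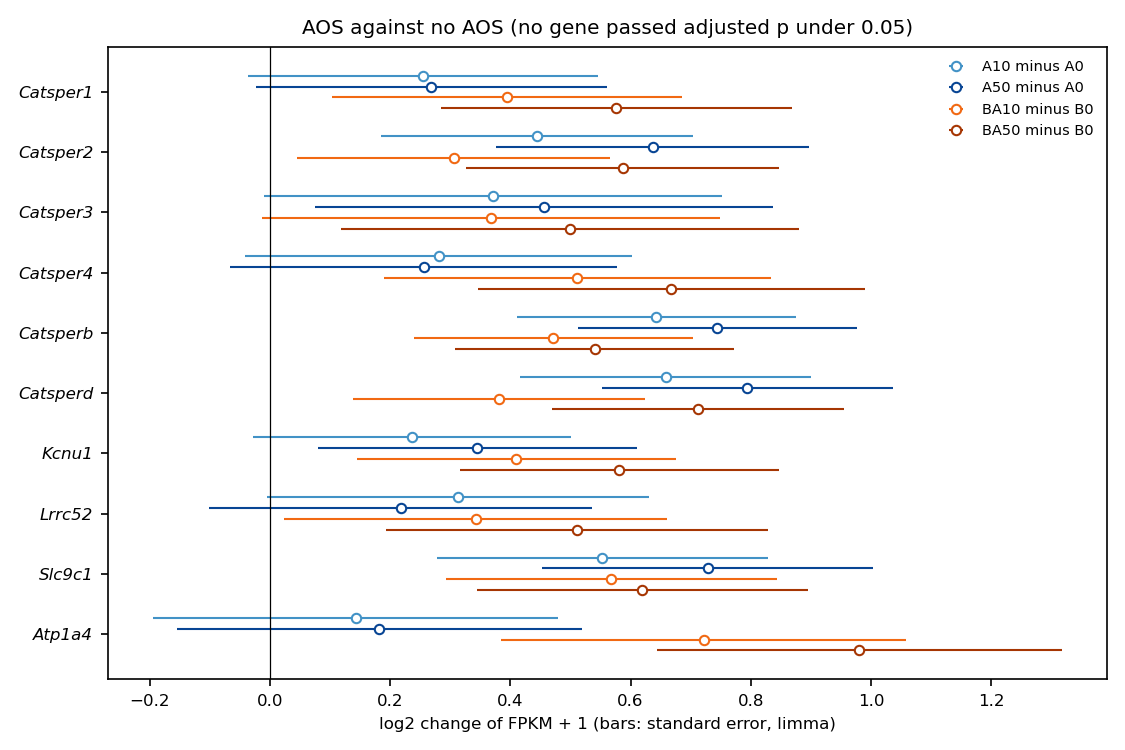
The log2 change of FPKM + 1 with AOS (x axis; points with standard error bars, limma) for each of the 10 genes (y axis), at 10 and 50 µg/mL, without busulfan (blue) and after it (orange). All points lie above 0 and none passed adjusted p under 0.05; the point farthest right is Atp1a4 in BA50 against B0, at 0.98.

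Whether AOS acted differently after busulfan was tested as an interaction. None of the 10 genes passed by limma at 10 or 50 µg/mL, and none had an unadjusted p under 0.05. The differences between the AOS changes ranged from -0.28 to 0.58 at 10 µg/mL and from -0.20 to 0.80 at 50 µg/mL. Atp1a4 had the largest at both, 0.58 ± 0.48 and 0.80 ± 0.48 (SE, limma adjusted p = 0.91 and 0.89).

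The genes varied together from sample to sample. After each group's mean was taken away, Pearson's r between pairs of the 10 genes over the 18 samples ran from 0.57 (Catsper2 with Atp1a4) to 0.98 (Catsper4 with Kcnu1), with a median of 0.85 over 45 pairs. The samples share their library and their cell make-up across genes, so these are descriptions and carry no test. Outside the 10, the genes whose log2 level followed their mean most closely over the 18 samples were Plcd4 and Cdkl3 (Pearson's r = 0.989 and 0.988), followed by Gykl1, Ttll13, Bag5, Dnajb3, Spata6, Odf2, Ipo5 and 4930453N24Rik (0.974). Of these 10 followers, 6 were among the closest 10 by Spearman's rho, 2 when group means were taken away and 6 without A10 replicate 3.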

How the data were processed

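RNA-seq of 18 cultured mouse testis samples, 3 in each of 6 groups named in the sample labels, was analyzed. The authors made poly(A) libraries, sequenced them on an Illumina HiSeq 2500 and deposited FPKM values per gene with 2 decimals. The supplementary methods describe mapping to reference genes with SOAPaligner 2.20 and call the unit RPKM, while the submitters' processing notes name HISAT, Bowtie2, RSEM and GRCm38.p5. Which of these made the table was not settled. Low values were not whole multiples of 1 read (23.7% of 790 ratios lay within 0.1 of a whole number, 20% by chance), so depth is unknown and no counting interval was given. No 2 samples held identical values.

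The table holds 22657 genes. Of 20811 NCBI gene numbers, 20656 matched a symbol and 155 did not, and 1846 rows were the sequencing provider's gene models. The 15790 genes that reached 1 FPKM in 3 or more samples were fitted with limma 3.58.1 in R 4.3.3 (lmFit, eBayes with trend) on log2(FPKM + 1), with all 18 samples in 1 fit and 1 coefficient per group, leaving 12 residual degrees of freedom. Fold changes on this scale understate those of low genes. P-values were adjusted over all genes tested in each comparison (Benjamini-Hochberg). The call rules were adjusted p under 0.05 and the limits of the study. The test of the study, which needs read counts, was not run. Single genes were also tested by exact two-sided permutation of the mean log2 values (20 divisions of 3 against 3; 8000 arrangements within AOS concentrations). The fit was tested on simulated data.

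Positions are from GENCODE M21 (GRCm38) and promoters from RefSeq (GRCm38.p6), with 250 bases before the start. Gene lists and the named genes were all members of fixed lists, plus the 10 genes most like the mean of the members by Pearson's r. Results of some gene lists and markers are not reported here. The members and lists were chosen with earlier results of these data known. Alternatives were quantile normalization, TPM scaling, a smaller pseudocount (0.1), an unfiltered table, a filter at a mean of 5 FPKM, separate fits of the compared groups, the replicate number as a block, a constant prior variance, group means differing by a factor of 2 or more with no test, and leaving out each sample in turn. The replicate numbers come from the labels. The deviations of same-numbered samples from their group means correlated at 0.56, 0.42 and 0.14 in BA50 against B0, over 0.1 for every pair, so the numbers were taken to pair these 2 groups; in each other comparison at least 1 pair was under 0.1. A fit of BA50 and B0 alone with the replicate block, the lists without A10 replicate 3 and the shares of all genes separated without a sample were added after the data had been seen.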

Additional observations from a re-analysis of the deposited data

How the results depend on the processing

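The median change of the 10 genes moved by less than the spread between samples under every alternative run. That is a loose limit, since the spread (SD 0.39 within groups) is wider than the median of 0.24 over all concentrations. With 1 sample left out the median ran from -0.21 to 0.20 in B0 against A0 and from -0.10 to 0.42 in BA10 against A10, so its direction could turn. In A10 against A0 it ran from 0.07 to 0.60. Over all AOS concentrations 4 genes stayed lower at adjusted p under 0.05 under each alternative. When only the groups compared were fitted, 1 gene rather than 2 was lower in B0 against A0, and under the limits of the study the count went from 1 to 0 in BA10 against A10 and in BA50 against A50. TPM scaling raised the count under those limits from 0 to 1 in B0 against A0 and from 1 to 2 over all concentrations, as did a pseudocount of 0.1 in the latter. A ratio of means of at least 2 gave 1, 2 and 2 lower genes in B0 against A0, BA10 against A10 and over all concentrations. Of all genes 6.06%, 8.15% and 6.17% were lower by that rule. It gave 1 higher gene in BA50 against B0, where 2.7% of all genes were higher. Genes higher without overlap numbered 2 after quantile normalization and 0 under TPM scaling in BA50 against A50 (1 as measured), and 1 under TPM scaling in BA50 against B0. Quantile normalization left 0 genes lower without overlap over all concentrations, since Catsperb then overlapped. It also raised the share of higher calls among all genes from 10.7% to 24.2% in B0 against A0 and from 19.8% to 32.5% in BA10 against A10; TPM scaling lowered it from 34.8% to 23.8% over all concentrations. The cause of these shifts was not tested.

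By the limit of 0.1 given above, replicate numbers were taken to pair BA50 with B0 and no other groups compared. Whether the numbers mark shared culture repeats is not known. With the replicate block in a fit of these 2 groups alone, chosen after seeing the data, 0 genes passed adjusted p under 0.05 and the median change stayed at 0.58; Atp1a4 had a limma adjusted p of 0.19. With the replicate number as a block, the count under the limits of the study was 0 in BA10 against A10, 2 genes stayed lower at adjusted p under 0.05 at each AOS concentration and 4 over all concentrations.

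With 1 sample left out at a time, genes lower at adjusted p under 0.05 numbered 1 to 2 in B0 against A0 and in BA50 against A50, and genes higher 0 to 1 in BA50 against B0 and over all concentrations. Under the limits of the study the counts were 0 to 1 at each AOS concentration and 1 to 2 over all. Genes higher without overlap numbered 0 to 3 in B0 against A0, 0 to 4 in BA10 against A10, 1 to 6 in BA50 against A50, 2 to 10 in A10 against A0, 4 to 10 in A50 against A0, 1 to 7 in BA10 against B0 and 2 to 10 in BA50 against B0, and genes lower without overlap 2 to 4 in B0 against A0; a smaller group overlaps less by construction. The 3 genes in B0 against A0 were counted without A0 replicate 1, where 14.9% of all genes were higher without overlap. The 4 in BA10 against A10 were counted without A10 replicate 3, where 15.8% of all genes were. Shares of all genes for the other highest counts are given above. Some changes that had not passed also turned direction. In B0 against A0 the ranges of the log2 change were -0.033 to 0.39 for Catsper1, -0.097 to 0.23 for Kcnu1, -0.012 to 0.54 for Lrrc52 and -0.34 to 0.17 for Atp1a4. In BA10 against A10 they were -0.00070 to 0.55 for Catsper1, -0.00040 to 0.72 for Catsper3, -0.095 to 0.39 for Kcnu1 and -0.11 to 0.45 for Lrrc52, each lowest without BA10 replicate 2. They were -0.0054 to 0.49 for Catsper1 and -0.060 to 0.45 for Atp1a4 in A10 against A0, -0.020 to 0.49 for Atp1a4 in A50 against A0 and -0.00026 to 0.66 for Catsper3 in BA10 against B0.

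Depth is unknown, so precision rests on 3 samples a group. Overlap between samples has no value under the pseudocount, filter, variance, block and group alternatives, which leave the FPKM values as they are.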
